A study of Mus musculus with 6 samples.

Results

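The long noncoding RNAs (lncRNAs) of mouse chromosome 2 described here are XLOC_014960, the lncRNA named Dcdc5, Gm14002 and Gm13705, each read by 1 probe of the array (ASMM10P022126, ASMM10P023447, ASMM10P021445 and ASMM10P023014). They were chosen by their measured fold change between Nrf2 (+/+) and Nrf2 (−/−) hippocampus on these same arrays. All 4 are on the study's list of DElncRNAs, which required a fold change above 2 and an unadjusted p under 0.05. They are 4 of 42 probes on that list assigned to chromosome 2, of 278 lncRNA probes on the list in all, of 43528 probes tested and 60915 probes on the array. Because the genotype difference chose them, it is given as a description with its standard error, and no test of it is attached to any of the 4.

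The mice were ICR males of 3 to 4 months. The Nrf2 (+/+) group held 3 wild type mice and the Nrf2 (−/−) group 3 mice with a knockout of the Nrf2 gene, with neither group given a treatment according to the labels. RNA of each hippocampus was depleted of rRNA, amplified with random primers, labelled with Cy3 and hybridised to 1 Arraystar array. A signal is called well above background where the scanner software found the spot clearly brighter than its local background. Values below are log2 signals after quantile normalization, which gives the arrays 1 common distribution of signals, unless another scale is named.

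LncRNAs are transcripts without a long open reading frame. Some act on genes near the place where they are transcribed, others act elsewhere in the nucleus or cytoplasm, and for many no function is known. Nrf2, encoded by Nfe2l2, is a transcription factor that pairs with small Maf proteins, binds antioxidant response elements and activates genes of detoxification, glutathione synthesis and NADPH supply. Nfe2l2 itself is on chromosome 2. Gm13705 is listed in RefSeq as Chrna1os, a lncRNA next to Chrna1, the gene of the muscle nicotinic acetylcholine receptor alpha subunit. Gm14002 is an annotated lncRNA, the Dcdc5 lncRNA carries the symbol of a protein-coding gene with doublecortin domains, and XLOC_014960 is an assembled transcript model without an established symbol.

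Gm14002 is listed in RefSeq as a lncRNA, but the set of promoter windows used here held none for it. Only Gm13705 had a window in that set that belongs to the lncRNA itself. It is shown because Gm13705 was the 1 member with a higher signal in Nrf2 (−/−) mice, so that the letters around its start can be set beside the core of the antioxidant response element. The window covers chr2:73584610-73584909 on the + strand of GRCm38.p6, 300 bases around the annotated start. It is written 5′ to 3′, and capitals mark the matches to the looser motif TGANNNNGC.
Gm13705: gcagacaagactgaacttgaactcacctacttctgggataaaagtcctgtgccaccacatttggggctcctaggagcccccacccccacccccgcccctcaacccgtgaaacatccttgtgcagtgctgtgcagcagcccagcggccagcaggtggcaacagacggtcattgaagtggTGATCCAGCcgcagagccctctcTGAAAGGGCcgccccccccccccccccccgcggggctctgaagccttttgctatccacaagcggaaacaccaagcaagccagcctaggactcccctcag
The core TGACNNNGC, searched on both strands, had 0 matches in this window, and 12.4% of 32851 mouse promoter windows of this kind hold at least 1. The looser TGANNNNGC, which includes every match of the core, had 2 matches, TGATCCAGC and TGAAAGGGC, and 41.3% of the windows hold at least 1. The window of the protein-coding gene Dcdc5 held 0 matches of either motif, but whether the Dcdc5 lncRNA starts there is not given in the sources used here. These matches describe letters and not bound sites.

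The genotype labels were checked first on Nfe2l2. Its signal was 12.40, 11.93 and 12.28 in the Nrf2 (+/+) mice and 7.95, 7.82 and 8.02 in the Nrf2 (−/−) mice, a log2 fold change of -4.27 with a standard error of 0.20. The Nfe2l2 probe stayed well above background on all 6 arrays, and the part of the gene that it reads is not given in the sources used here. Between 65.5% and 75.7% of the probes were well above background per array, and no spot was saturated. The median background-subtracted signal before normalization was 86.3 to 107 on the Nrf2 (+/+) arrays and 136 to 181 on the Nrf2 (−/−) arrays, so the second group was brighter as a whole. Quantile normalization removes this shift, and its part in the differences below was not tested. A marker gene could be joined to a probe only if it was on the study's lists of changed RNAs. Any marker named this way was therefore bound to differ between the genotypes. Of 19 marker genes of brain cell types, 1 could be joined to a probe. It was Drd2, a dopamine receptor abundant in striatum, at 8.34 in Nrf2 (+/+) and 9.11 in Nrf2 (−/−) mice (log2 fold change 0.77, standard error 0.26), and its part in the results was not tested. The hippocampal identity of the tissue was not checked, since the other markers had no named probe. As Drd2 was picked by its difference, nothing about the tissue is read from Drd2. In bulk tissue, fewer cells that make a transcript and less transcript per cell cannot be told apart.

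Among the 4 lncRNAs, 3 had lower signals in Nrf2 (−/−) mice and 1 had a higher signal. For all 4 the lowest value of one genotype lay above the highest value of the other. Over the whole array 6.23% of tested probes were lower in Nrf2 (−/−) mice without overlap and 4.25% were higher without overlap. A fold above 2 with an unadjusted p under 0.05 (limma) was reached by 1.12% of tested probes in the lower direction and by 0.308% in the higher direction, or 489 and 134 probes. With each array shifted to its 75th percentile in place of quantiles, the counts were 406 lower and 248 higher. Without Nrf2 (+/+) replicate 2 they were 716 and 467. After Benjamini-Hochberg adjustment over all tested probes, 0.0345% were lower and 0.0138% higher at an adjusted p under 0.05 (limma), 21 probes in all. This count was 0 with the methods' equal-variance test, 566 with the slide, inferred from the scan time, as a block, and 8 to 195 with single arrays left out. Since the members were taken from probes past limits of this kind, nothing is read from the members' count.

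**Figure D1:**
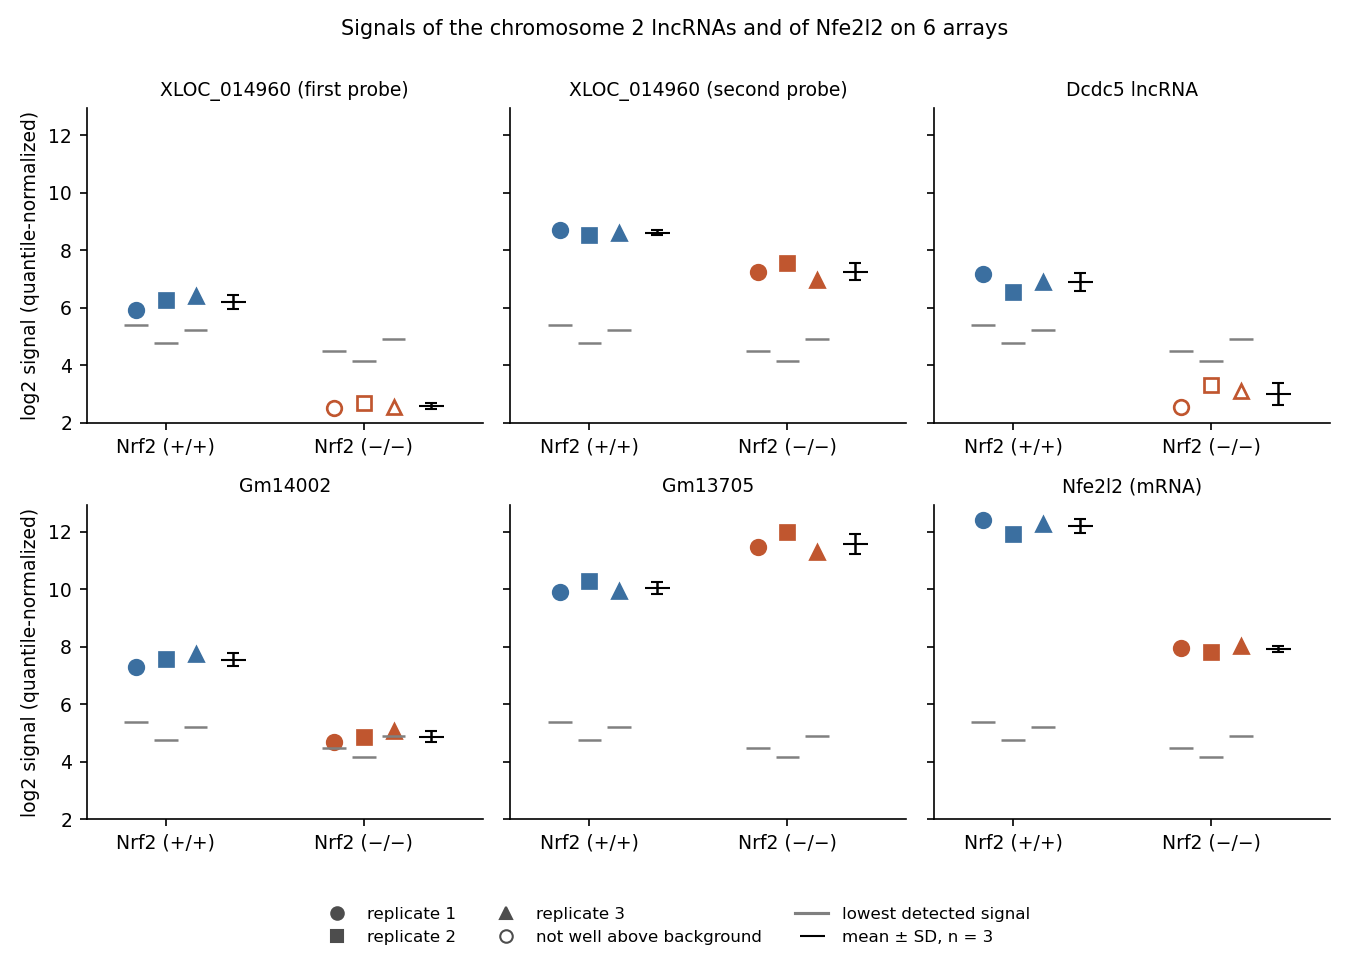
Log2 signal after quantile normalization (vertical axis) of the 4 lncRNAs, of a second probe of XLOC_014960 and of the Nfe2l2 mRNA on each of the 6 arrays, by genotype. Symbols stand for replicates, open symbols for spots not well above background, grey dashes for that array's lowest detected signal, and black bars for the mean ± SD of 3 mice; the first XLOC_014960 probe and the Dcdc5 lncRNA lie below the grey dashes on all 3 Nrf2 (−/−) arrays.

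XLOC_014960, listed on the − strand, gave 5.93, 6.27 and 6.42 in Nrf2 (+/+) mice and 2.51, 2.69 and 2.56 in Nrf2 (−/−) mice. The means were 6.21 ± 0.25 (SD, n = 3) and 2.59 ± 0.09 (SD, n = 3), and the groups stood 3.25 apart at their nearest values. The measured log2 fold change was -3.62 with a standard error of 0.20. The spots were well above background on 3 of 3 Nrf2 (+/+) arrays and on 0 of 3 Nrf2 (−/−) arrays, so the lower group has only an upper limit. The flag was also set on 41 of 300 negative-control spots of each Nrf2 (+/+) array. The brightest of these spots read 95.4, 87.8 and 77.1 after background subtraction, above the XLOC_014960 signals given below, so the detection and the bound rest on the flag. Set against the dimmest detected probe of every Nrf2 (−/−) array, the Nrf2 (−/−) signal of XLOC_014960 was at least 3.23-fold lower. Leaving out single arrays gave bounds from 2.85 to 3.69. Under normexp background correction, described below, the bound was 1.99-fold, so its size depends on that setting.

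The scanner signals show how little separated the Nrf2 (−/−) spots from the glass around them. The median pixel of the XLOC_014960 spot read 92, 104 and 93 in Nrf2 (+/+) mice beside local backgrounds of 22, 25 and 19. In Nrf2 (−/−) mice it read 36.5, 49 and 41 beside local backgrounds of 24.5, 25 and 20. After background subtraction the signals were 51.0, 64.2 and 57.4 against 6.68, 8.59 and 6.30. The error that the scanner software gave for the Nrf2 (−/−) values was 6.70, 6.08 and 6.32, about as large as 2 of the 3 values themselves. The probes designed as negative controls had median signals of 6.01 to 7.06 on the same Nrf2 (−/−) arrays. The XLOC_014960 signals in Nrf2 (−/−) hippocampus lay near these medians, and transcript below this limit could not be detected. Before any background subtraction the mean spot signal was 2.28 times as high in Nrf2 (+/+) mice, and after subtraction the means were 57.5 and 7.19.

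A second probe of XLOC_014960 is on the list, and it was well above background on all 6 arrays. It gave 8.70, 8.54 and 8.61 in Nrf2 (+/+) mice and 7.24, 7.55 and 6.96 in Nrf2 (−/−) mice, with means of 8.62 ± 0.08 and 7.25 ± 0.29 (SD, n = 3 each). Its log2 fold change was -1.37 with a standard error of 0.21, in the same direction as the first probe. Before normalization its mean subtracted signals were 316 and 199, a ratio of 1.59 beside the normalized 2.58. Under normexp the values of the first and second probe were -1.13 and -1.05, so no order of size is read from the 2 probes. Its subtracted signals of 216, 246 and 134 in Nrf2 (−/−) mice were above the negative-control medians of those arrays, where the brightest single control spots read 243, 130 and 99.4. In Nrf2 (−/−) hippocampus the second probe was thus detected on 3 of 3 arrays and the first on 0 of 3. Which exons or isoforms the 2 probes read is not given in the sources used here.

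The Dcdc5 lncRNA, listed on the + strand, gave 7.18, 6.56 and 6.91 in Nrf2 (+/+) mice and 2.56, 3.31 and 3.12 in Nrf2 (−/−) mice. The means were 6.89 ± 0.31 and 3.00 ± 0.39 (SD, n = 3 each), with 3.25 between the nearest values of the groups. The measured log2 fold change was -3.89 with a standard error of 0.27. Like XLOC_014960, the Dcdc5 lncRNA was well above background on 3 of 3 Nrf2 (+/+) and 0 of 3 Nrf2 (−/−) arrays. On Nrf2 (+/+) replicate 2 its background-subtracted signal of 78.4 lay below the brightest negative-control spot, 87.8. On replicates 1 and 3 its signals of 124 and 82.2 lay above the brightest such spots, 95.4 and 77.1. The detection and bound of the Dcdc5 lncRNA thus rest on the flag too. Computed as for XLOC_014960, its Nrf2 (−/−) signal was at least 5.16-fold lower, and 4.56-fold to 5.91-fold when single arrays were left out. Under normexp this bound was 2.47-fold.

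The subtracted signal of the Dcdc5 lncRNA was 124, 78.4 and 82.2 in Nrf2 (+/+) mice and 7.05, 17.7 and 7.89 in Nrf2 (−/−) mice. Replicate 2 of the Nrf2 (−/−) group was the highest of the 3, with a software error of 6.21. The weaker flag of the software, a signal positive and significant against background, was set on replicates 2 and 3 of that group for the Dcdc5 lncRNA and on replicate 2 for XLOC_014960. Spot medians were 168, 117 and 116 in Nrf2 (+/+) mice and 41, 59.5 and 45 in Nrf2 (−/−) mice, a ratio of means of 2.75 before subtraction and 8.75 after it.

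**Figure D2:**
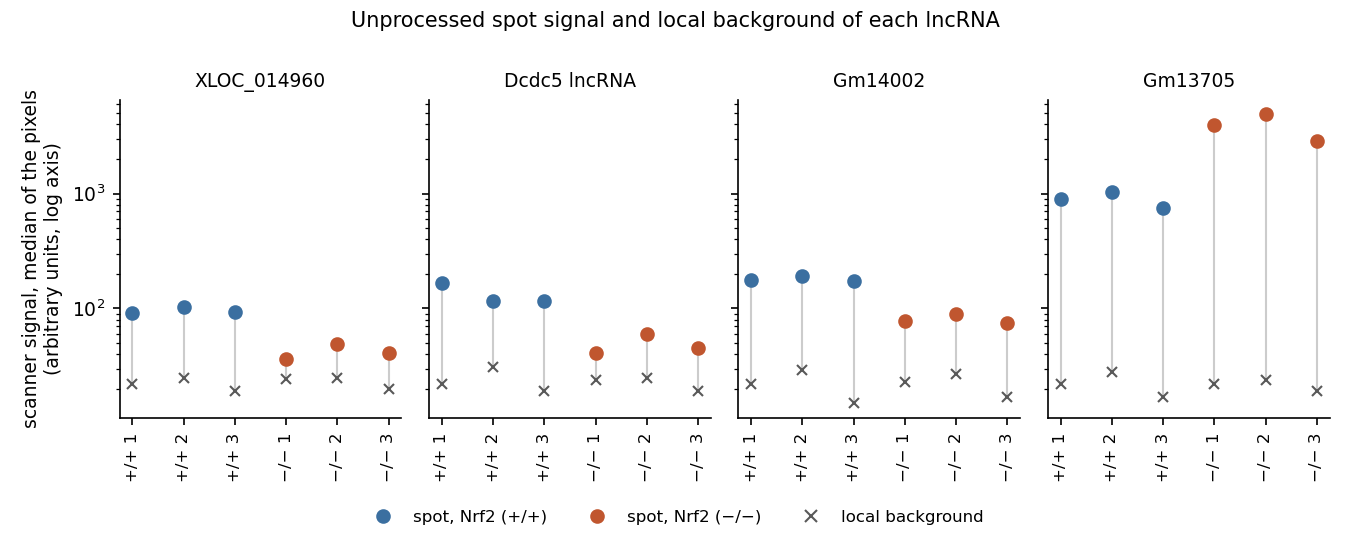
Median pixel signal of the spot (circles) and of its local background (crosses) on each array for the 4 lncRNAs, in arbitrary scanner units on a log axis, before background subtraction or normalization; labels give genotype and replicate. The spots of XLOC_014960 fell from between 92 and 104 to between 36.5 and 49, while their local background stayed between 19 and 25 in both genotypes.

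Gm14002, listed on the − strand, was lower in Nrf2 (−/−) mice and carried the well-above-background flag in both genotypes. Its signal was 7.31, 7.56 and 7.76 in Nrf2 (+/+) mice and 4.67, 4.87 and 5.07 in Nrf2 (−/−) mice. The means were 7.54 ± 0.23 and 4.87 ± 0.20 (SD, n = 3 each), and 2.24 lay between the nearest values. The log2 fold change was -2.67 with a standard error of 0.21, which is 6.38-fold lower, and -1.36 under normexp. All 6 spots were well above background, although the Nrf2 (−/−) values lay close to the lowest detected signals on those arrays, 4.49, 4.16 and 4.91. The same flag was set on 40 to 42 of 300 negative-control spots of the Nrf2 (−/−) arrays. The brightest of those spots, at 99.4 to 243 after subtraction, exceeded Gm14002 there. Subtracted signals were 136, 153 and 152 against 38.0, 44.7 and 34.7, a ratio of 3.76 between the means before normalization. The pooled SD within genotypes was 0.21, beside a median of 0.32 over all tested probes. The list's limit on p favours a small spread, so nothing is read from this difference.

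Gm13705, on the + strand, was the member with the brightest spots and the only one of the 4 that was up-regulated. Its signal was 9.90, 10.28 and 9.94 in Nrf2 (+/+) mice and 11.47, 11.98 and 11.30 in Nrf2 (−/−) mice, with replicate 2 the highest in both groups. The means were 10.04 ± 0.21 and 11.58 ± 0.36 (SD, n = 3 each), with 1.01 between the nearest values. The log2 fold change was 1.54 with a standard error of 0.24, which is 2.91-fold higher and ranked 68 from the top among 43528 probes. Subtracted signals were 865, 981 and 738 in Nrf2 (+/+) mice and 3757, 4937 and 2784 in Nrf2 (−/−) mice. The ratio of these means was 4.44, larger than the normalized 2.91, on arrays that were brighter overall in the Nrf2 (−/−) group. The spots were 36.6 to 44.2 times their local background in Nrf2 (+/+) mice and 151 to 204 times in Nrf2 (−/−) mice, and the mean spot medians before subtraction were 890 and 3901, close to the subtracted means of 861 and 3826.

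The place of each spot among the probes of its own array does not depend on scaling between arrays. XLOC_014960 stood at percentiles 39.2 to 44.2 of the Nrf2 (+/+) arrays and 0.302 to 13.5 of the Nrf2 (−/−) arrays. The Dcdc5 lncRNA moved from percentiles 45.6 to 52.1 down to 7.36 to 18.8. Gm14002 moved from 53.4 to 58.1 down to 27.8 to 31.1. Gm13705 rose from percentiles 77.4 to 80.1 to percentiles 86.1 to 89.2. The Nrf2 (−/−) percentiles of XLOC_014960 and the Dcdc5 lncRNA are those of spots below the detection limit. The ranges of the genotypes were apart for all 4, which repeats the difference by which they were chosen.

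Replicates 1 of both genotypes carried the same scan time and were taken to share a slide, and so were replicates 3. No slide label was used. On the slide of replicates 1 the log2 difference, Nrf2 (−/−) minus Nrf2 (+/+), was -3.42 for XLOC_014960, -4.62 for the Dcdc5 lncRNA, -2.64 for Gm14002 and 1.57 for Gm13705. On the slide of replicates 3 it was -3.86, -3.79, -2.70 and 1.36 in the same order. For Gm14002 and Gm13705 these differences rest on detected spots, while those of XLOC_014960 and the Dcdc5 lncRNA rest on Nrf2 (−/−) spots below the detection limit and have no order. Each scan session, as the scanner times group the arrays, held both genotypes. Between group means within a session the differences were -3.33 and -3.79 for XLOC_014960, -4.25 and -3.61 for the Dcdc5 lncRNA, -2.54 and -2.60 for Gm14002, and 1.82 and 1.18 for Gm13705. Because the genotypes did not overlap for any of the 4, the direction within each slide and session was fixed by the choice of members, and only the sizes are described.

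When single arrays were dropped, the log2 difference ran from -3.76 to -3.52 for XLOC_014960 and from -4.05 to -3.67 for the Dcdc5 lncRNA. It ran from -2.79 to -2.56 for Gm14002 and from 1.34 to 1.69 for Gm13705. The ranges of XLOC_014960 and the Dcdc5 lncRNA rest on undetected Nrf2 (−/−) spots. Their bounds ran from 2.85-fold to 3.69-fold and from 4.56-fold to 5.91-fold. Normexp background correction with an offset of 50, which lifts dim signals, gave smaller values for the 3 lower lncRNAs: -1.13, -1.38 and -1.36 for XLOC_014960, the Dcdc5 lncRNA and Gm14002. The value for Gm13705 was 1.52 under the same correction. Normexp was run on the median spot signal and local background, so the input signal, the correction and the offset changed together. The sizes of the 3 decreases depend on this setting as a whole. Their direction was the same in every setting that gave a value, which the choice of members and the non-overlapping genotypes largely fixed beforehand. XLOC_014960 and the Dcdc5 lncRNA had none where all 6 arrays had to be well above background.

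**Figure D3:**
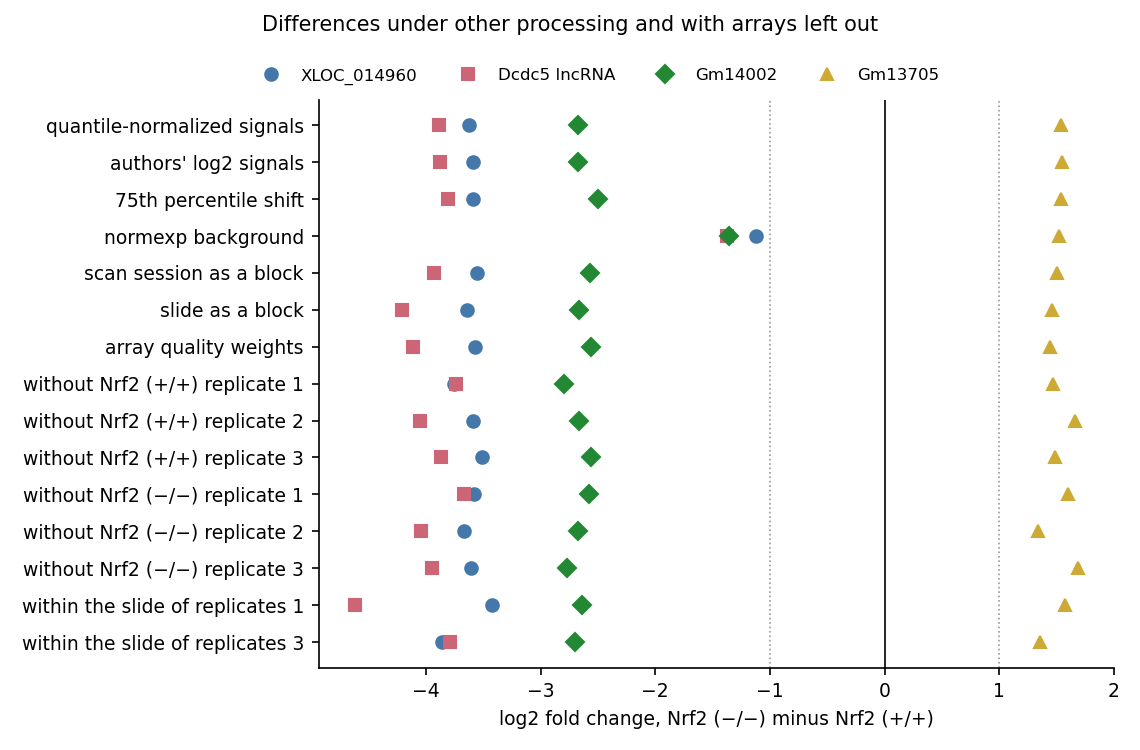
Log2 fold change, Nrf2 (−/−) minus Nrf2 (+/+), of the 4 lncRNAs (symbols) under the normalizations, blocks and left-out arrays named on the vertical axis; dotted lines mark a 2-fold change. Under normexp the 3 lower lncRNAs lie between -1.38 and -1.13 in place of -3.89 to -2.67, while Gm13705 lies between 1.34 and 1.69 in every setting shown.

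The 4 lncRNAs were also set beside the other listed lncRNA probes of chromosome 2. The list holds 34 lower and 8 higher probes there, beside 230 lower and 48 higher lncRNA probes on all chromosomes, a similar split. The share of chromosome 2 among all lncRNA probes of the array was not analysed here. Apart from the members, 31 probes were lower. Their log2 fold changes had a median of -1.48 and ranged from -4.14 to -1.09. The other 7 higher probes had a median of 1.29 and ranged from 1.06 to 1.93. The listed probes closest to the 2-fold limit were AI847159 at -1.09 and Gm13581 at 1.06. Under normexp XLOC_014960, at -1.13, came close to this limit. AI847159 and Gm13581 were named after their values were seen. The values come from the contrast by which the study made the list, and no test was made of them.

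**Figure D4:**
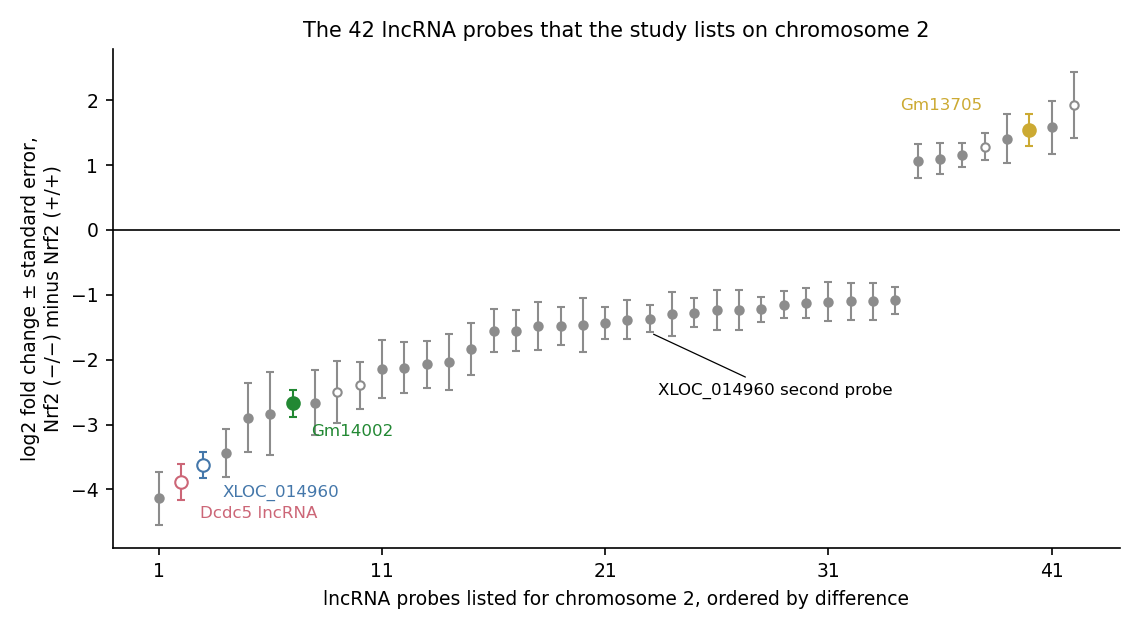
Log2 fold change with its standard error for the 42 listed lncRNA probes of chromosome 2, ordered by value, with the members in colour and open symbols for probes undetected on all arrays of 1 genotype. The Dcdc5 lncRNA and XLOC_014960 were measured at -3.89 and -3.62, Gm14002 at -2.67 and Gm13705 at 1.54.

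The detection pattern of XLOC_014960 and the Dcdc5 lncRNA, well above background on every Nrf2 (+/+) array and on no Nrf2 (−/−) array, was rare on the array. It was found for 15 of 43528 tested probes, or 0.0345%. Of the 15, 13 were on the study's lists and 5 of these were on chromosome 2, which holds 42 of the 278 listed lncRNA probes and 34 of the 412 listed mRNAs. The other 8 were on other chromosomes, among them Gm17106 on chromosome 16 and A330049N07Rik and Gm15397 on chromosome 10. The chromosome 2 probes were XLOC_014960, the Dcdc5 lncRNA, the lncRNAs AK028569 and AK040455, and the mRNA Cyct, which encodes the testis form of cytochrome c. These names were taken after the values were seen, and the pattern is part of the same contrast.

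By the order of genes in RefSeq, Gm13705 has 17 protein-coding genes between it and Nfe2l2. It lies between Chrna1 and Chn1, a gene of a Rac GTPase-activating protein, and none of its 10 nearest protein-coding genes, 5 on each side, is on the study's list of DEmRNAs. The protein-coding Dcdc5 gene, whose symbol the lncRNA carries, is 388 protein-coding genes away on the other side of Nfe2l2, in a neighbourhood that includes Pax6, a transcription factor of eye and brain development, and Elp4. Gm14002 is 587 protein-coding genes from Nfe2l2 on that same side, within the span of Slc12a1, the sodium-potassium-chloride cotransporter of the kidney. None of the 10 protein-coding neighbours of either one is on the list, and nothing is read from these counts, since the share of all genes on the list was not computed. The place of the Dcdc5 lncRNA itself relative to the Dcdc5 gene is not given in the sources used here. Slc12a1 runs on the + strand, opposite to the listed strand of Gm14002, and no signal of Slc12a1 was analysed here. XLOC_014960 was not in the RefSeq table, and its neighbours are not given here.

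Across the 6 arrays, the log2 signals of the 3 lower lncRNAs ran together. Pearson's r was 0.984 between XLOC_014960 and the Dcdc5 lncRNA, 0.996 between XLOC_014960 and Gm14002, and 0.983 between the Dcdc5 lncRNA and Gm14002. Gm13705 ran opposite to them, with r from -0.950 to -0.942. The genotype difference by which the members were chosen sets these values, as the arrays form 2 groups. In the deviations from the genotype means r was -0.13, 0.76 and 0.14 for the same 3 pairs, and from -0.08 to 0.39 for the pairs with Gm13705. Within genotypes r thus varied in sign and size among the pairs, and for XLOC_014960 and the Dcdc5 lncRNA they include undetected spots. With so few arrays the values are a description.

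The named probes most like each member over the 6 arrays were then listed, among 686 probes that the study's lists name. For XLOC_014960 they were Gm17106 (r = 0.998), Cyct (0.992) and Nfe2l2 (0.991). For Gm14002 they were Gm17106 (0.996), D630003M21Rik (0.993) and AK076764 (0.990). For the Dcdc5 lncRNA they were a lncRNA listed under the symbol Arl2, AK076764 and XLOC_002388, each at 0.996, and for Gm13705 they were 1700018B08Rik (0.993), Plekhg4 (0.983) and Krtap4-13 (0.976). Of the 43366 tested probes with a value on every array, between 525 and 698 had an r above 0.9 with a given member, or 1.21% to 1.61%. In deviations from the genotype means other named probes led, and the share of those 43366 probes with an r above 0.9 was 0.307% for XLOC_014960, 4.98% for the Dcdc5 lncRNA, 0.879% for Gm14002 and 11.2% for Gm13705. They were Hist1h2bq (0.90), AK034059 (0.90) and Nme9 (0.89) for XLOC_014960, and Airn (0.993), Bcl2a1d (0.988) and 4930486L24Rik (0.984) for the Dcdc5 lncRNA. For Gm14002 they were Baiap2 (0.968), Tfpi2 (0.942) and Hyal1 (0.931), and for Gm13705 a lncRNA listed under the symbol B4galnt3 (0.977), Pla2g12a (0.973) and Slc25a11 (0.970). All of these r values share the same 6 arrays and carry no test. Those of XLOC_014960 and the Dcdc5 lncRNA include undetected Nrf2 (−/−) spots, as do the signals of Gm17106 and Cyct. The mean signals of Nme9 and Tfpi2 in Nrf2 (+/+) mice were 4.40 and 4.00. Both lay below the lowest detected signals of those arrays, 4.76 to 5.39, so their r values include undetected spots too.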

How the data were processed

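Hippocampal RNA of 6 mice was read on 1-colour Agilent arrays. The authors extracted the spots with Agilent Feature Extraction 11.0.1.1, and the deposited intensities have the background subtracted but no scaling across arrays. The authors' table of log2 signals is quantile-normalized and differed from the values computed here by a median of 0.000974 over 60819 probes. Here, negative-control probes and outlier spots (16 to 91 per array) were left out, log2 processed signals were averaged per probe and quantile-normalized, and the 43528 probes detected (flagged well above background) on 3 or more of the 6 arrays were fitted with limma 3.58.1 (R 4.3.3). Tables were handled with Python 3.11.15, numpy 2.4.6, pandas 2.3.3 and matplotlib 3.10.9. The fit was tested on simulated data, and the outcome is not given here. The number of arrays limits the precision, and p-values set the genotype difference against the spread within genotypes of these 6 samples.

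The 4 members and all lists were chosen with earlier results of these data known. The probes named were the members, Nfe2l2, a second probe of a member's symbol, and per member the 3 listed probes with the highest correlation under each of 2 measures. The files pair few probes with genes, so a probe was named where the fold change and p recomputed from the authors' log2 signals matched 1 entry of the study's lists within a relative tolerance of 1e-04; all 303 lncRNA and 412 mRNA entries matched, the former at 278 probes. Values of those lists were not used otherwise. Probe sequences, and positions of the 4 member probes, were not in the sources used here. Gene order and promoters are from RefSeq GRCm38.p6. Same-numbered mice had deviations correlated at -0.15, 0.42 and 0.81, so the numbers were not taken as pairs. Alternatives were other scalings, background corrections, filters, tests and blocks, and each array left out. The files' flags are whole numbers per spot. Bounds under other settings were chosen after seeing the data.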

Additional observations from a re-analysis of the deposited data

How the results depend on the processing

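As the choice of members and the non-overlapping genotypes largely fixed, the log2 fold changes of the 4 lncRNAs kept their direction under every alternative that gave a value. Normexp background correction moved 3 of them, to -1.13 for XLOC_014960, -1.38 for the Dcdc5 lncRNA and -1.36 for Gm14002. XLOC_014960 and the Dcdc5 lncRNA had no value where all 6 arrays had to be well above background. With arrays left out, the fold changes ran from -3.76 to -3.52, -4.05 to -3.67, -2.79 to -2.56 and 1.34 to 1.69 for XLOC_014960, the Dcdc5 lncRNA, Gm14002 and Gm13705. The bound for XLOC_014960 became 2.75-fold with a 75th percentile shift and 1.99-fold with normexp, and that of the Dcdc5 lncRNA 4.46-fold and 2.47-fold.

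Over all probes, 623 passed 2-fold and an unadjusted p under 0.05 (limma). This count was 301 with normexp, 1013 with the positive-and-significant filter, 398 with Welch's test, 1090 with the slide as a block, 967 with array weights, and 616 to 1183 with arrays left out, the highest without Nrf2 (+/+) replicate 2. An adjusted p under 0.05 was reached by 21 probes. That count was 9 with either the filter on all 6 arrays or no filter, 566 with the slide as a block, 661 with array weights, and 8 to 195 with arrays left out, the highest without Nrf2 (−/−) replicate 2. It was 0 with the methods' equal-variance test (2535 at an unadjusted p under 0.05) and 0 with Welch's test (1890). With the replicate number as a block it was also 0, with 7090 at an unadjusted p under 0.05 (limma) and 664 of those past 2-fold. The numbers were not taken as pairs of mice, although replicates 1 of both genotypes shared a scan time, as did replicates 3. The cause of these shifts was not tested. Dim signal limits XLOC_014960 and the Dcdc5 lncRNA in Nrf2 (−/−) mice to bounds.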
